A study of Danio rerio with 8 samples.

Results

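Molecular chaperones are proteins that help other proteins to fold, to refold after damage or to be handed to degradation. Those of the HSP70 family bind unfolded stretches in a cycle driven by ATP, in which J-domain proteins (DNAJ) bring the client and BAG and HSP110 proteins release the nucleotide. HSP90 matures selected clients, ring chaperonins enclose them, and small heat shock proteins hold them without ATP. Some of these genes are expressed in every cell at all times, whereas others are induced through heat shock factors when cells are stressed, and in heart muscle a further set looks after the myosin, actin and filamin of the sarcomere.

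The chaperone genes described here were the rows of the deposited table whose Ensembl symbol begins with one of the names of these families (HSP70, HSP110, HSP90, the small heat shock proteins, the mitochondrial and cytosolic chaperonins, DNAJ classes A to C, BAG and UNC45). Of 31388 rows, 109 carried such a symbol. A filter of 1 CPM (count scaled to library size) in 2 or more libraries kept 96 of them, among 13895 genes tested in all, and 18 of the 96 were at 0 in at least 1 library. Of the 13 not tested, 6 were at 0 in every library, among them the 2 small heat shock genes *hspb11* and *hspb15*. The name rule also caught *TCP11L1*, *TCP11L2* and *HSPBAP1*, which are not known as chaperones and are counted but not described further. Symbols are printed as in the Ensembl table, where capitals mark the name of a human match, and the identifier is added where 2 rows share a symbol.

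RNA-Seq was measured in cardiomyocytes from ventricles of adult *tbx5a:GFP;myl7:nuc-dsRed* zebrafish of 6 to 9 months of age. Hearts were dissociated with enzymes and sorted: cells with GFP and nuc-dsRed gave the *tbx5a*+ population, and cells with nuc-dsRed alone gave the *tbx5a*- population. Both populations thus carry both transgenes. The *myl7* promoter marks nuclei of cardiomyocytes and *tbx5a* regulatory sequences drive GFP, so that the groups are defined by reporters and not by position in the wall. There were 4 paired replicates, each a pool of 5 hearts, so that both libraries of a pair (numbered 2, 8, 9 or 10) would come from 1 pool.

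The 8 libraries held an estimated 7149190 to 9491779 reads, and 11329 to 14983 genes were above 0, fewest in the *tbx5a*- libraries of pairs 9 and 2. *tbx5a* (ENSDARG00000024894) was at 3197 to 4919 normalized units in *tbx5a*+ and at 90.5 to 442 in *tbx5a*- libraries, with a log2 fold change of 4.32, a standard error (SE) of 0.36 and an adjusted *p* of 8.7e-08 from limma. Markers of cardiomyocytes summed to 370531 or more in every library, and 1 of the 11, *MYH6* (ENSDARG00000079564), was called higher in *tbx5a*- libraries (log2 fold change -2.29). The other row of that name, *myh6* (ENSDARG00000090637), was not called (log2 fold change 0.23, limma, adjusted *p* = 0.965). The summed markers of other cells were lower, but the sums cover unlike numbers of genes and are not corrected for length. How many other cells were present cannot be read from them. They were 66.0 to 326 for 9 endothelial genes and 527 to 3347 for 8 smooth muscle genes. Of the latter, *acta2* and *TAGLN* (ENSDARG00000045408) were called higher in *tbx5a*- libraries. For 6 fibroblast and epicardial genes, of which *SPARC* was called higher in *tbx5a*- libraries with the block, the sums were 235 to 1093. They reached 276 for 5 leukocyte genes and 102 for 4 erythrocyte genes, and were 0 to 55.2 for 2 thrombocyte genes.

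A first comparison asked whether chaperone genes differ between *tbx5a*+ and *tbx5a*- cardiomyocytes. None of the 96 was called, beside 27 of all 13895 genes, or 0.194% (limma on log2 of the normalized value plus 1, where a call needs *p* at 0.05 or below after Benjamini–Hochberg adjustment together with a change of 1 or more on the log2 scale). At a share that low, 0 calls among 96 genes do not set the chaperone genes apart. With the pair as a block 1 chaperone gene, *HSPA12B*, was called, beside 0.417% of all genes, and limma-voom called none. At an unadjusted *p* under 0.05, 3 of the 96 were higher in *tbx5a*+ cells, against 4.62% of all genes, and 2 were higher in *tbx5a*- cells, against 2.44% of all genes. Fold changes, given on this log2 scale as *tbx5a*+ minus *tbx5a*-, were above 0 for 56 of the 96 (58.3%, against 61.3% of all genes), with a median of 0.11 against 0.20 for all genes tested. The median was -0.03 without the *tbx5a*- library of pair 2 and 0.21 without the *tbx5a*+ library of that pair. For 60 of the 96 the change was smaller than its own SE.

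Changes beyond 1 on the log2 scale were seen in 15 chaperone genes, and 13 of these had mean values under 100, where the added 1 and single libraries weigh most. By family, the median log2 fold change was -0.22 over 14 HSP70 genes, -0.25 over 4 HSP90 genes, 0.12 over 9 small heat shock genes, 0.15 over 8 genes of the cytosolic chaperonin, 0.33 over both genes of the mitochondrial chaperonin and 0.29 over 26 DNAJ genes of class C. *tbx5a*+ cells were higher in 4 of 4 pairs for 13 of the 96, or 13.5%, against 9.54% of all genes, and *tbx5a*- cells were higher in 4 of 4 pairs for 6, or 6.25%, against 5.38%. These shares were near those of all genes.

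**Figure D1:**
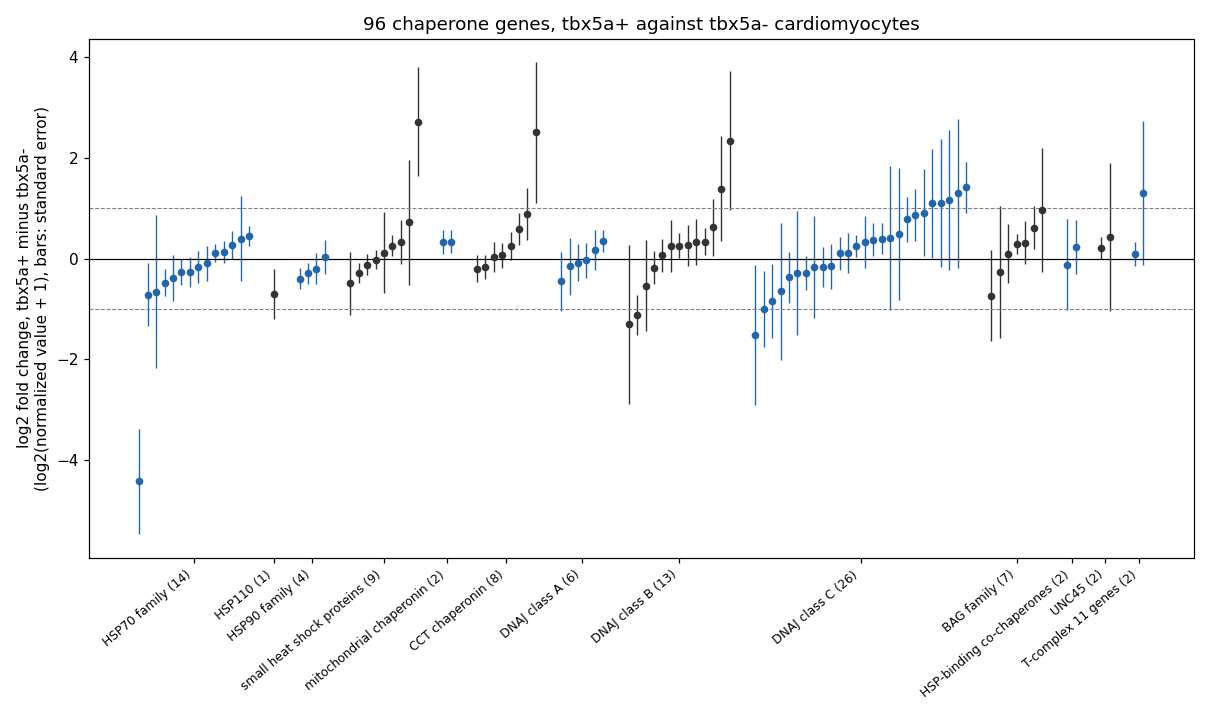
Log2 fold change between *tbx5a*+ and *tbx5a*- cardiomyocytes (vertical axis, log2 of the normalized value plus 1) for each of 96 chaperone genes, grouped by family with the number of genes in brackets. Points are limma estimates, bars their SEs and dashed lines a change of 1. Most genes lie between the dashed lines, and the lowest point is *HSPA12B* at -4.42.

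*HSPA12B* (ENSDARG00000030307), a distant HSP70 relative that in mouse and human is known for its expression in endothelial cells, showed the largest difference. Its normalized values were 2.78, 0, 9.56 and 23.7 in the *tbx5a*+ libraries of pairs 2, 8, 9 and 10, and 319, 41.9, 172 and 87.5 in the *tbx5a*- libraries. Each *tbx5a*- value exceeded each *tbx5a*+ value, which was so for 1 of the 96 chaperone genes and for 1.65% of all genes tested. On the log2 scale the difference was -4.42 (SE 1.04). After adjustment limma gave *p* = 0.110, or 0.064 to 0.578 when 1 library was left out, and 0.036 with the pair as a block, while the exact two-sided permutation test of 4 against 4 libraries gave *p* = 0.0286, the smallest it allows. That permutation value follows from the lack of overlap alone and is not adjusted over genes. *HSPA12B* was also called with a pseudocount of 5 (log2 fold change -3.47, adjusted *p* = 0.027 by limma) and with a robust fit (0.033). It was not called with limma-voom (0.283).

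The summed level of the 9 endothelial markers ranged from 66.0 to 219 in *tbx5a*+ and from 102 to 326 in *tbx5a*- libraries. It was highest in the *tbx5a*- library of pair 2, which also had the highest *HSPA12B* value. Other libraries did not share this order. The endothelial sum was 219 in the *tbx5a*+ library of pair 2, where *HSPA12B* was at 2.78. In the *tbx5a*- library of pair 9 that sum was 102, with *HSPA12B* at 172. Of these markers, *FLI1* was at 0 in all 4 *tbx5a*- libraries and *ERG* in all 4 *tbx5a*+ libraries, and none of the 9 was called. The smooth muscle markers ranged from 527 to 1043 in *tbx5a*+ and from 827 to 3347 in *tbx5a*- libraries, highest in those of pairs 9 and 2, where *HSPA12B* was highest too. The same held for the cardiomyocyte row *MYH6* (ENSDARG00000079564). It was at 27884 and 32219 in the *tbx5a*- libraries of pairs 2 and 9, and at 9488 and 13760 in those of pairs 8 and 10. In *tbx5a*+ libraries it was at 3205 to 4924. The fibroblast and epicardial markers summed to 235 to 409 in *tbx5a*+ and 402 to 1093 in *tbx5a*- libraries, highest in that of pair 2. What part other cells had in the *HSPA12B* values was not tested, and in such pooled libraries more cells of a type and more RNA per cell cannot be told apart. Without the *tbx5a*- libraries of pairs 2 and 9 the log2 fold change was -3.46 (SE 1.37, limma, adjusted *p* = 0.850). In that fit 1 of all genes tested was called, against 27 in the fit of all 8 libraries. *HSPA12B* and the chaperonin gene *CCT7* are neighbours in the RefSeq annotation of the assembly GRCz12tu.

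*DNAJB5* (ENSDARG00000052881), which encodes a J-domain partner of HSP70 that in rodent heart has been tied to redox control of a histone deacetylase, was at 92.4, 216, 423 and 278 in *tbx5a*+ libraries of pairs 2, 8, 9 and 10. In *tbx5a*- libraries it was at 272, 442, 873 and 513. *tbx5a*- cells were higher in 4 of 4 pairs, while the ranges of both populations overlapped. The log2 fold change was -1.13 with an SE of 0.40 and of 0.27 with the pair as a block, and the adjusted *p* from limma was 0.549 and 0.052, respectively. *DNAJB5* thus did not pass in either fit, and its pair means differed 3.55-fold, against 2.08-fold between the population means. Its log2 fold change was -1.11 without the *tbx5a*- libraries of pairs 2 and 9.

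In the other direction, *DNAJC15* (ENSDARG00000038309), which encodes a J-domain protein of the inner mitochondrial membrane, was at 204, 190, 102 and 192 in *tbx5a*+ libraries of pairs 2, 8, 9 and 10. In *tbx5a*- libraries its values were 40.6, 83.8, 29.6 and 143. *tbx5a*+ cells were higher in 4 of 4 pairs, but the *tbx5a*+ value of pair 9 lay under the *tbx5a*- value of pair 10. The difference of 1.41 on the log2 scale (SE 0.51; limma, adjusted *p* = 0.567) was 0.60 without the *tbx5a*- libraries of pairs 2 and 9.

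*HSPA9* (ENSDARG00000003035) encodes the HSP70 of mitochondria, which pulls proteins through the inner membrane. It was at 5613, 6219, 5305 and 7279 in *tbx5a*+ libraries and at 3348, 5036, 4051 and 5564 in *tbx5a*- libraries of pairs 2, 8, 9 and 10. It was higher in *tbx5a*+ cells in 4 of 4 pairs, by 0.46 on the log2 scale (SE 0.20, limma, adjusted *p* = 0.673), and the populations overlapped. Without the *tbx5a*- libraries of pairs 2 and 9 it was 0.195. *DNAJC19*, which encodes a J-domain partner of HSPA9 at the import channel, was also higher in 4 of 4 pairs (142 ± 45.8 against 81.0 ± 22.7, SD, *n* = 4 each, log2 fold change 0.78, SE 0.45). Its log2 fold change was 0.58 without the same *tbx5a*- libraries. The mitochondrial chaperonin of *HSPD1* (HSP60) and *HSPE1* (HSP10), neighbouring genes in the RefSeq annotation, gave log2 fold changes of 0.34 and 0.33 (SEs 0.22 and 0.24) and higher values in *tbx5a*+ cells in 4 of 4 pairs for both. *HSPD1* was at 1152, 1920, 1770 and 2018 in *tbx5a*+ and at 1067, 1572, 1253 and 1473 in *tbx5a*- libraries, and its log2 fold change was 0.14 without the same *tbx5a*- libraries. None of these 4 mitochondrial genes passed the test (adjusted *p* = 0.673 to 0.767 from limma). The J-domain genes *DNAJA3* and *dnaja3b* did not share their direction. *DNAJA3* had a log2 fold change of -0.03 (SE 0.35) and was higher in *tbx5a*+ cells in 2 of 4 pairs. That of *dnaja3b* was -0.45 (SE 0.59), with *tbx5a*- cells higher in 3 of 4 pairs. The co-chaperone genes *GRPEL1* and *GRPEL2* had log2 fold changes of -0.005 and -0.55. Of 12 further rows of mitochondrial folding and proteolysis, 10 were above 0. Over all genes tested the median log2 fold change was 0.20.

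**Figure D2:**
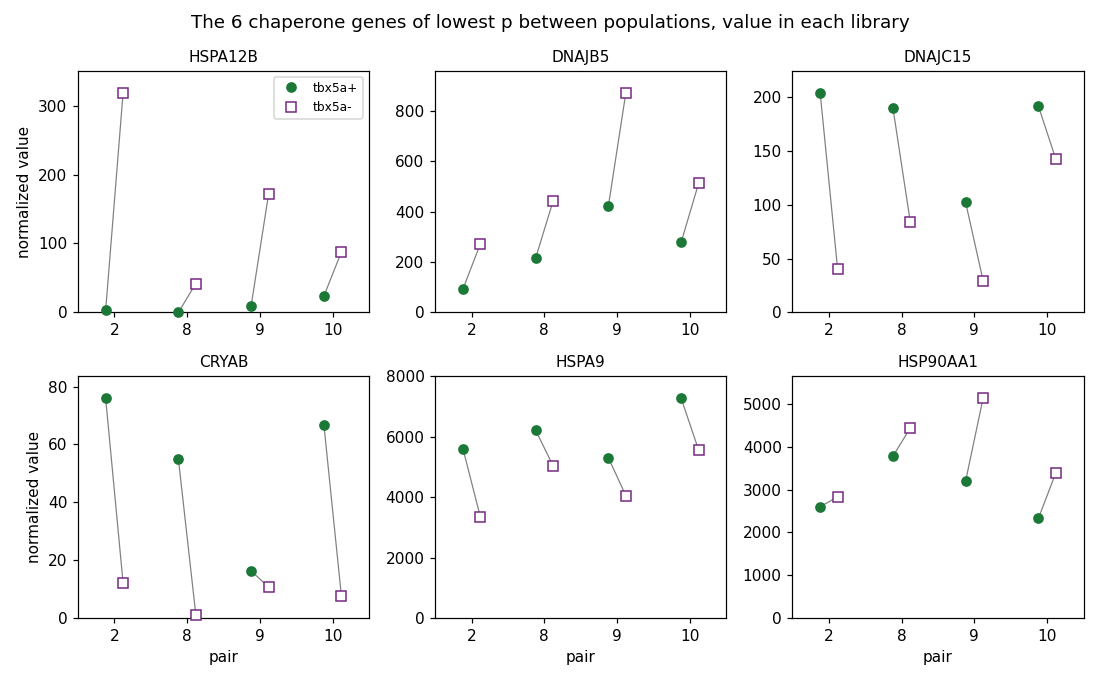
Normalized value (vertical axis, from 0) in each library for the 6 chaperone genes of lowest *p* between populations, by pair (horizontal axis). Filled circles are *tbx5a*+ and open squares *tbx5a*- libraries, and a line joins the libraries of a pair. All 4 pairs run in 1 direction in each panel, and the populations overlap except for *HSPA12B* and *CRYAB*.

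The small heat shock genes include those most typical of muscle. *CRYAB* (ENSDARG00000101380, alpha B-crystallin) was at 76.0, 55.0, 16.3 and 66.8 in *tbx5a*+ libraries and at 12.1, 1.02, 10.7 and 7.73 in *tbx5a*- libraries of pairs 2, 8, 9 and 10. Each *tbx5a*+ value exceeded each *tbx5a*- value, which held for 1 of the 96 chaperone genes and for 2.32% of all genes. The exact two-sided permutation test gave *p* = 0.0286, the smallest possible, which follows from the lack of overlap alone and is not adjusted over genes. At 2.72 on the log2 scale (SE 1.08) the difference was not called (limma, adjusted *p* = 0.630, and 0.469 with the block). The RefSeq annotation has *cryabb*, the name that the study's gene list gives to this identifier, overlapping its neighbour *hspb2*, so reads could be assigned to either. *HSPB2* was at 11.8 to 90.3 in *tbx5a*+ and 17.8 to 151 in *tbx5a*- libraries, with a log2 fold change of 0.12 (SE 0.80). A second *CRYAB* row (ENSDARG00000042621) was at 0 in 5 libraries and was not tested.

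The 4 small heat shock genes with mean values above those of *hspb6* had log2 fold changes from -0.29 to 0.26, and none was called. *HSPB1*, whose product (HSP27) guards actin filaments, averaged 20735 ± 2299 in the *tbx5a*+ and 21164 ± 3520 in the *tbx5a*- libraries (SD, *n* = 4 each), a difference of -0.02 on the log2 scale (SE 0.19). *HSPB7*, a heart and muscle gene whose product binds filamin C, was at 11913, 9989, 9473 and 10229 in *tbx5a*+ and at 15336, 11667, 15747 and 9090 in *tbx5a*- libraries of pairs 2, 8, 9 and 10. Its *tbx5a*- values were highest in pairs 9 and 2. The log2 fold change of -0.29 (SE 0.20) was 0.01 without those *tbx5a*- libraries. *HSPB8*, which acts with BAG3 on damaged Z-disc proteins, had a log2 fold change of -0.12 (SE 0.20), and *hspb9l* one of 0.26 (0.21). *BAG3* itself averaged 6451 ± 790 and 5361 ± 1143 over the 4 libraries of each population (*tbx5a*+ first, SD). In 4 of 4 pairs its *tbx5a*+ value was the higher (log2 fold change 0.28, SE 0.19, limma, adjusted *p* = 0.752). *HSPB3* and *hspb9*, with few reads, had log2 fold changes of -0.49 (SE 0.62) and 0.72 (1.24).

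Folding of myosin relies in zebrafish muscle on *hsp90aa1.1* together with *UNC45B*, a chaperone of the myosin head. *UNC45B* was at 2466, 2487, 2266 and 2413 in *tbx5a*+ and at 1661, 1879, 3286 and 1841 in *tbx5a*- libraries of pairs 2, 8, 9 and 10. *tbx5a*+ cells were higher in 3 of 4 pairs, and the *tbx5a*- library of pair 9 stood above all others. The log2 fold change was 0.21 (SE 0.21), and that of *hsp90aa1.1* was -0.20 (0.31). *UNC45A*, a relative of *UNC45B*, was at 0 in 3 of 8 libraries. Of the remaining HSP90 genes, *HSP90AA1* (ENSDARG00000024746) was at 2599, 3778, 3202 and 2327 in *tbx5a*+ and at 2828, 4443, 5135 and 3393 in *tbx5a*- libraries. It was higher in *tbx5a*- cells in 4 of 4 pairs (log2 fold change -0.40, SE 0.22, limma, adjusted *p* = 0.723). *HSP90AB1*, the form expressed at all times, had a log2 fold change of -0.30 (SE 0.20), with 11512 in the *tbx5a*- library of pair 9 and 5767 to 7507 in the remaining libraries, and of -0.002 without the *tbx5a*- libraries of pairs 2 and 9. *HSP90B1*, the form of the endoplasmic reticulum, gave 0.03 (SE 0.34).

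The cytosolic chaperonin, a ring of related subunits that folds actin and tubulin, was measured through 8 rows. *CCT4* was at 335, 479, 449 and 678 in *tbx5a*+ and at 236, 295, 231 and 594 in *tbx5a*- libraries of pairs 2, 8, 9 and 10. It was the 1 subunit gene higher in *tbx5a*+ cells in 4 of 4 pairs (log2 fold change 0.59, SE 0.32, limma, adjusted *p* = 0.723), and 0.17 without the *tbx5a*- libraries of pairs 2 and 9. *TCP1* (0.89, SE 0.52), *CCT7* (0.24, 0.28) and *CCT5* (0.06, 0.25) were also estimated above 0, and *CCT3* (-0.20, 0.26) and *CCT8* (-0.16, 0.24) below it. *CCT6B* was at 0.04 (SE 0.30). *cct2* was at 0 in 2 libraries and reached 28.3 at most, so that its log2 fold change of 2.50 (SE 1.39) rests on few reads. Of the 8 estimates, 5 were smaller than their SE, and none was called. Among J-domain partners of HSP70 in the cytosol, *DNAJA2* (ENSDARG00000104066) was higher in *tbx5a*+ cells in 4 of 4 pairs (1928 ± 227 against 1535 ± 325, SD, *n* = 4 each) and so was *DNAJC7* (1048 ± 110 against 882 ± 84.5). Their log2 fold changes were 0.35 (SE 0.21) and 0.25 (0.22). These were 0.16 and 0.29 without the *tbx5a*- libraries of pairs 2 and 9. Some J-domain genes ran otherwise. The second *DNAJA2* row (ENSDARG00000010745) had a log2 fold change of -0.08 (SE 0.37), with *tbx5a*+ cells higher in 1 of 4 pairs. For *dnaja* (-0.16, SE 0.56), *dnaja1* (0.17, 0.39) and *dnajb1b* (-0.18, 0.34) it was 1 of 4 pairs as well. Log2 fold changes were above 0 for 2 of 6 class A and 9 of 13 class B genes.

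A second comparison, added after the values had been seen, asked whether chaperone genes differ between the 4 pairs of libraries. In the fit with population and pair, 10 of the 96 chaperone genes, or 10.4%, differed between pairs (limma's *F*-test over the 4 pairs, with *p* at 0.05 or below after adjustment), against 109 of all 13895 genes, or 0.784%. These shares compare genes of unlike precision. The median SE of the fold change between populations was 0.438 over the chaperone genes and 0.937 over all genes tested. *hspa1b*, an HSP70 gene whose mammalian namesake is induced by heat, ranked first of all genes tested. *hsp70l*, a heat-inducible HSP70 gene of zebrafish, ranked 6. The others were *hsp90aa1.1*, *dnaja*, *hspb6*, *HSPH1*, *dnajb1b*, *hsp70.1*, *HSPA2* and *DNAJB5*, with ranks of 9 to 95.

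The normalized values of *hspa1b* were 1985 and 3974 in the *tbx5a*+ and *tbx5a*- libraries of pair 2, 14641 and 9064 in pair 8, 12730 and 21623 in pair 9, and 4180 and 5825 in pair 10. The means of the pairs differed 5.76-fold, the libraries within a pair 1.39- to 2.00-fold, and the adjusted *p* between pairs was 7.0e-06 by limma. *hsp70l* was at 4482 and 5179 in pair 2, 20589 and 14602 in pair 8, 11193 and 16400 in pair 9, and 7110 and 7662 in pair 10, again with *tbx5a*+ first. For both genes each library of pairs 8 and 9 was above each library of pairs 2 and 10. Between populations their log2 fold changes were -0.39 (SE 0.46) and -0.09 (0.35).

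*hsp90aa1.1* was at 13026 and 14856 in pair 2, 31493 and 31229 in pair 8, 33213 and 51843 in pair 9, and 18224 and 17838 in pair 10. The J-domain gene *dnaja* (ENSDARG00000051762) was at 66.8 and 75.7 in pair 2, 530 and 391 in pair 8, 491 and 711 in pair 9, and 263 and 336 in pair 10. Its pair means differed 8.45-fold, the widest among the 10 genes, and its libraries within a pair 1.13- to 1.45-fold. *HSPH1*, the HSP110 nucleotide exchange factor, was at 88.3 and 248 in pair 2, 641 and 554 in pair 8, 494 and 788 in pair 9, and 131 and 238 in pair 10. *dnajb1b*, the classical HSP40 partner of induced HSP70, was at 609 and 888 in pair 2, 2360 and 1582 in pair 8, 1680 and 2625 in pair 9, and 985 and 1054 in pair 10.

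In 9 of the 10 genes pair 2 had the lowest mean, and pair 9 (7 genes) or pair 8 (2 genes) the highest. Pair 2 was also lowest for 54 of all 96 chaperone genes (56.25%), called or not, against 25.9% of all genes tested and 37.6% of the 109 called between pairs. *hspb6* (HSP20), a small heat shock protein of muscle, went the other way. It was at 2324 and 1757 in pair 2, 428 and 359 in pair 8, 482 and 703 in pair 9, and 966 and 420 in pair 10, so that pair 2 was highest and pair 8 lowest. *hsp70.1* and *HSPA2* spanned 2.30- and 2.28-fold between pair means. Between populations *hsp70.1* was higher in *tbx5a*- cells in 4 of 4 pairs (log2 fold change -0.48, SE 0.27, limma, adjusted *p* = 0.731). The log2 fold change of *HSPA2* was -0.27 (SE 0.29). The HSP70 genes resemble each other closely, and *hsp70.1* and *hsp70.3* flank *hsp70.2* in the RefSeq annotation, so that the split of reads among them by RSEM is uncertain. *hsp90aa1.1* has *hsp90aa1.2* as its neighbour there, a symbol that no row of the deposited table carried. Whether the row *HSP90AA1* is that gene, and how reads were split between these genes, was not tested. *hsp70.3* (adjusted *p* = 0.538 between pairs, from limma) was not called.

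**Figure D3:**
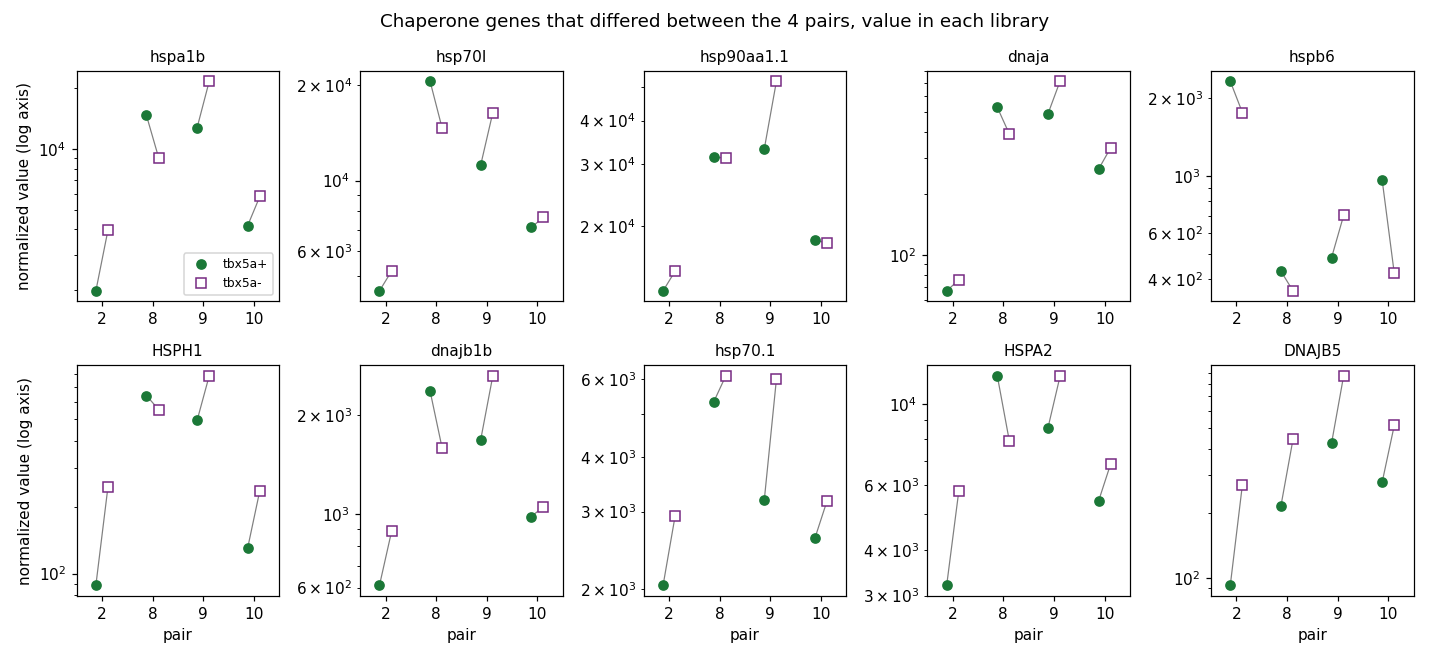
Normalized value (vertical axis, logarithmic) in each library for the 10 chaperone genes that differed between pairs, by pair (horizontal axis). Filled circles are *tbx5a*+ and open squares *tbx5a*- libraries, and a line joins the libraries of a pair; in 9 panels pair 2 has the lowest mean, as *hspa1b* with 1985 and 3974, and *hspb6* alone is highest there.

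Of the 96 genes, 86 were not called between pairs. *HSPA8* (ENSDARG00000068992, HSC70), the HSP70 expressed at all times, was at 11552, 13302, 11006 and 12534 in *tbx5a*+ and at 11729, 10184, 12112 and 10939 in *tbx5a*- libraries of pairs 2, 8, 9 and 10. Its pair means differed 1.02-fold, and by its *p* between pairs it ranked 13894 of 13895. *HSPB1* (1.30-fold), *HSP90AB1* (1.48-fold), *UNC45B* (1.35-fold), *BAG3* (1.47-fold) and *HSPA9* (1.43-fold) were not called between pairs either. *HSPA5* (BiP), the HSP70 of the endoplasmic reticulum and a marker of stress there, was at 662, 823, 993 and 633 in *tbx5a*+ libraries. In *tbx5a*- libraries it was at 412, 657, 1117 and 533. Its pair means differed 1.96-fold, lowest in pair 2 and highest in pair 9, and it was not called (limma, adjusted *p* = 0.364). Further genes without a call also varied, as *DNAJB4* (3.98-fold between pair means) and *CCT7* (2.04-fold). At an unadjusted *p* under 0.05 from limma's *F*-test, 27 of the 96 differed between pairs, against 1246 of all 13895 genes.

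The comparison between pairs rests on 2 libraries a pair and depends on single libraries. Calls among all genes fell as well when a library was left out, from 109, and are given with those among chaperone genes. Without the *tbx5a*+ library of pair 2, 8, 9 or 10, respectively, 0 of 19, 5 of 31, 6 of 77 and 5 of 24 genes called were chaperone genes. Without the *tbx5a*- library of these pairs, 1 of 17, 8 of 40, 3 of 9 and 5 of 15 were. Without both libraries of pair 2 it was 0 of 18, and without both of pair 9 it was 4 of 15. *dnaja*, *hsp70l*, *hspa1b* and *hspb6* were each called in 6 of the 8 fits that left out 1 library, and *hsp90aa1.1* in 5. The calls of *dnajb1b*, *HSPH1*, *HSPA2* and *hsp70.1* were each kept in 1 of these 8 fits, and that of *DNAJB5* in 0. What distinguishes the pairs besides their number (fish, day or handling) was not given in the labels, and these cannot be told apart.

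Immediate early genes, which are induced rapidly when cells are stimulated, were read in the same fit. Of 38 immediate early genes tested, 5 differed between pairs, beside 0.784% of all genes (*FOSB*, *NR4A3*, *NR4A1*, *egr1* and *MYC*, ENSDARG00000007241), and all 5 were highest in pair 10 and lowest in pair 8 or 9. *FOSB* was at 2889 and 1390 in pair 2, 1265 and 1092 in pair 8, 1881 and 787 in pair 9, and 3329 and 3663 in pair 10, with *tbx5a*+ first. The pairs in which *hspa1b* and *hsp70l* were highest were thus those in which *FOSB* was lowest. Some immediate early genes that were not called ran otherwise. *JUN* was at 450 and 475 in pair 2 and 838 and 566 in pair 8. In pairs 9 and 10 it was at 775 and 1045, and at 927 and 856. *BTG1* was at 3453 and 4954 in pair 2 and 4889 and 4916 in pair 8. In pairs 9 and 10 it was at 4576 and 5335, and at 2624 and 3309. Whether digestion and sorting had a part in either set was not tested.

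As a share of the whole library, the 96 genes took 1.56% and 1.798% in the *tbx5a*+ and *tbx5a*- libraries of pair 2, 2.29% and 2.21% in pair 8, 2.03% and 2.76% in pair 9, and 1.64% and 1.79% in pair 10. HSP70 genes took 0.402% to 0.856% in *tbx5a*+ and 0.480% to 0.919% in *tbx5a*- libraries, and HSP90 genes 0.269% to 0.472% and 0.324% to 0.799%. Small heat shock genes spanned a narrower range, 0.502% to 0.620% and 0.507% to 0.736%. The populations overlapped in all 4 shares, and pairs 8 and 9 held the highest HSP70 and HSP90 shares of both.

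**Figure D4:**
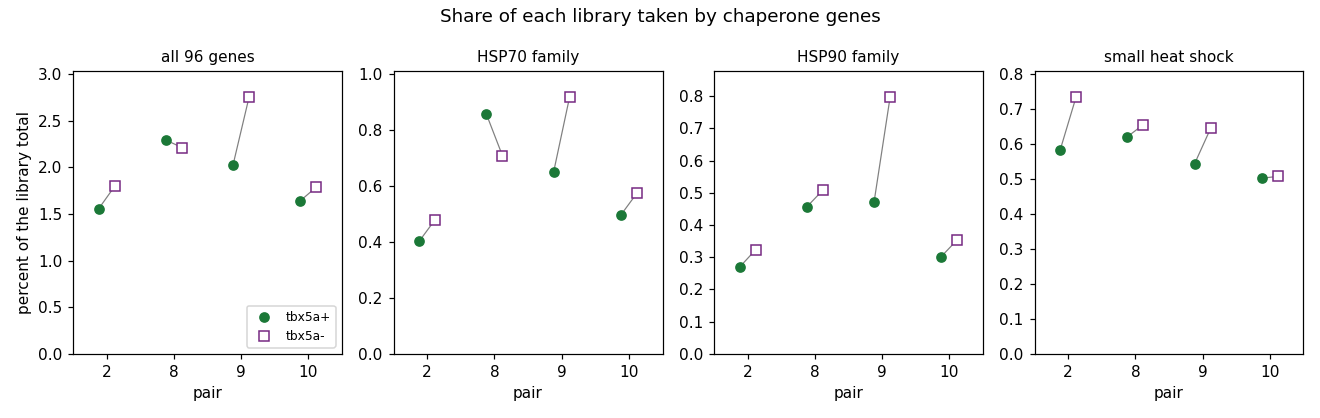
Percent of the normalized total of each library (vertical axes, from 0) taken by all 96 chaperone genes and by 3 of their families, by pair (horizontal axis). Filled circles are *tbx5a*+ and open squares *tbx5a*- libraries; the share of all 96 genes runs from 1.56% to 2.76%, and pairs 8 and 9 lie above pairs 2 and 10 for HSP70 and HSP90 genes.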

How the data were processed

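Libraries were made per the labels and methods from 0.6 ng of total RNA each with 2 rounds of amplification, after the atrioventricular canal had been cut away, and read as 60-base single reads. Adaptors were trimmed with cutadapt. The authors then estimated counts per gene with RSEM and normalised them, and deposited 1 signal value per gene and library. Neither whole counts nor gene lengths are in the table, so the tests compared levels between libraries and not between genes. Levels of different genes and sums over marker lists are printed without correction for length. CASAVA 1.8.2, RSEM 1.2.3 and Zv9 are listed in the processing notes of the submitters, whereas the methods give a later RSEM and a later gene build. The value of 1 read, 0.859 to 1.186 units, was read from the spacing of low values (71.1% to 77.7% of values under 60 were whole multiples within 0.0051) and gave the estimated reads used for limma-voom and depth. This covers counting error only.

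Genes at 1 CPM or more in 2 or more libraries were kept, as in the methods. log2(value + 1) was fitted over all 13895 genes with limma 3.58.1 in R 4.3.3 (variance trend, Benjamini–Hochberg). The authors used edgeR, which needs counts. Fits were tested on simulated data. Python 3.11.15 was used for the other calculations. The labels number the pairs and the series calls the replicates paired: deviations of the libraries of a pair correlated at 0.043 to 0.089 across genes. Members, gene lists and tests were chosen with earlier results of these data known. Named genes were those called in any of 3 fits (limma, with the block, limma-voom), those without overlap, the 10 of lowest *p*, the highest of each family, the *hspb*, *cryab*, *hsp70*, *hsp90* and *unc45* genes, and those with 1 library above 5 times the next. *hspa1b*, *dnaja*, *HSPA2* and other genes outside this rule were named after their values had been seen. Alternatives were other pseudocounts, filters, scalings and tests, and fits without single libraries. Symbols came from a table of Ensembl gene names, which named all 96, and neighbours from RefSeq (GRCz12tu). No coordinates are printed because the builds differ.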

Additional observations from a re-analysis of the deposited data

Results flagged for a closer look

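In 5 of 78 groups of 4 libraries, 1 library lay far from the other 3 by Dixon's test, where chance gives about 1 group in 20. The *tbx5a*+ library of pair 9 was low for *DNAJC15* (102), and the *tbx5a*+ library of pair 8 was high for *HSPB3* (180). Among *tbx5a*- libraries, that of pair 9 was high for *UNC45B* (3286), that of pair 10 for *cct2* (28.3) and that of pair 8 for *hspb9l* (8491).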

How the results depend on the processing

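The number of chaperone genes called between populations was 0 in the limma fit and 1 (*HSPA12B*) with the replicate block, with a pseudocount of 5 and with a robust fit. Calls over all genes rose as well, from 27 in the limma fit to 58, 35 and 33 in these 3 fits, respectively. The block changed no other call among the chaperone genes. The median log2 fold change of 0.11 ranged from -0.029 to 0.209 when 1 library was left out and was -0.01 when values were scaled to library totals and 0.003 without the *tbx5a*- libraries of pairs 2 and 9, against 0.20, 0.09 and 0.037 for all genes in the 8 libraries and under these last alternatives. *tbx5a* stayed called in every alternative run. Among 647 alternative values of 36 named genes, that of *HSPB7* reversed, to 0.009 without the *tbx5a*- libraries of pairs 2 and 9, and 16 genes whose change was smaller than its standard error changed sign in 46 values. The number of chaperone genes that differed between pairs, 10, ranged from 0 to 8 when 1 library was left out. It was 6 with no filter on low values (34 over all genes), 0 without the *tbx5a*- libraries of pairs 2 and 9 (0 over all genes), 0 without pair 2 (18) and 4 without pair 9 (15), and it stayed within 1.5 times of 10 under the other pseudocounts, scalings and tests and without pair 8 or 10. Over all genes this number, 109, ranged from 0 to 280. Fewer libraries leave fewer degrees of freedom for the error. The alternatives for pairs were chosen after the data were seen.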

Other observations

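Folding genes outside the families above were described from lists. Of 77 such genes tested (co-chaperones of HSP70 and HSP90, prefoldin, cofactors of the chaperonin, folding enzymes of the endoplasmic reticulum, mitochondrial folding and proteolysis, heat shock factors, and muscle myosin and filament quality), 0 were called between populations and 0 with the pair as a block. Over all genes 0.194% and 0.417% were called, so that 0 calls among 77 genes do not set these genes apart. Median log2 fold changes were 0.07 over 26 co-chaperone genes, -0.46 over 7 prefoldin genes, -0.21 over both chaperonin cofactors, 0.01 over 20 genes of the endoplasmic reticulum, 0.50 over 12 mitochondrial rows, -0.41 over 3 rows of heat shock factors and their binders and 0.20 over 7 muscle genes, against 0.20 for all genes tested. The mitochondrial rows hold *CLPX*, *HTRA2*, *YME1L1* and *CLPB* with 2 rows each.

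Of the 77, 2 differed between pairs, beside 0.784% of all genes. *SMYD1* (ENSDARG00000091253), which encodes a muscle methyltransferase that acts with HSP90 in myosin assembly, was at 593 and 469 in the *tbx5a*+ and *tbx5a*- libraries of pair 2, 398 and 155 in pair 8, 282 and 269 in pair 9, and 1038 and 876 in pair 10 (adjusted *p* = 0.0083 by limma). Pairs 8 and 9, which had the highest *hsp90aa1.1*, had the lowest *SMYD1*. The co-chaperone genes *FKBP4* and *AHSA1* (ENSDARG00000100317), not called between pairs (adjusted *p* = 0.088 and 0.14 by limma), went the other way. *FKBP4* was at 285 and 193 in pair 2 and 654 and 371 in pair 8. In pairs 9 and 10 it was at 586 and 748, and at 319 and 225. *AHSA1* was at 270 and 482 in pair 2 and 954 and 650 in pair 8. In pairs 9 and 10 it was at 802 and 940, and at 487 and 456. *FKBP5*, an HSP90 co-chaperone gene that glucocorticoids induce, was at 548 and 115 in pair 2, 551 and 343 in pair 8, 590 and 443 in pair 9, and 1248 and 769 in pair 10 (adjusted *p* = 0.038 by limma). Every pair had the higher *FKBP5* value in *tbx5a*+ cells (1.01 on the log2 scale; limma, adjusted *p* = 0.628).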
